A study of Mus musculus with 2 samples.

Results

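GATA and T-box factors are families of DNA-binding proteins, and 7 of their genes, Gata4, Gata5, Gata6, Tbx2, Tbx3, Tbx5 and Tbx20, are described here across the cells of the E11.5 mouse heart. They were chosen by name, as the family members best known from heart development, and were matched by Ensembl gene ID to 7 of the 22401 features counted in 2 single-cell RNA libraries. The control library came from Hand2fx/+R26RmTmG/wt embryos, which had 1 floxed Hand2 allele and no Cre. The H2CKO library came from Nfatc1Cre/wtHand2fx/fxR26RmTmG/wt embryos, in which both Hand2 alleles were floxed and Cre was made under Nfatc1 control. This driver recombines DNA in endocardium, the inner cell layer of the heart, so that its cushion descendants carry the deletion too. Both genotypes carried at least 1 floxed Hand2 allele and a single mTmG reporter allele, in which Cre switches a membrane protein from Tomato to GFP. Cre was present only in H2CKO, so an effect of Cre and an effect of Hand2 loss cannot be told apart. Whole hearts had been kept on ice for about 3 hours and were dissociated with TrypLE for 10x 3′ libraries, and the labels do not give the number or sex of the embryos in each.

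GATA factors are zinc-finger proteins that bind the core letters GATA, and T-box factors share a DNA-binding T-box domain. In the heart, Gata4, Tbx5 and Nkx2-5 proteins act together on muscle genes, while Tbx2 and Tbx3 repress chamber genes in the myocardium of the atrioventricular canal, outflow tract and conduction system. Gata4, Gata5, Gata6 and Tbx20 are also made in the endocardium and in the cushions, the swellings of matrix and mesenchyme that become the valves, and Hand2 is a basic helix-loop-helix factor found in the same cells.

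Promoter sequences are shown for Gata5 and Tbx20, because both genes had large genotype differences in 1 endothelial cluster and are the 2 of the 7 with an entry in the RefSeq promoter table. Each run is 300 bases around the gene's start on GRCm38.p6, given on the gene's own strand, with capitals marking matches to CANNTG, the E-box bound by basic helix-loop-helix proteins. The Gata5 window is chr2:180334630-180334929 and the Tbx20 window is chr9:24774254-24774553, both on the minus strand.
Gata5: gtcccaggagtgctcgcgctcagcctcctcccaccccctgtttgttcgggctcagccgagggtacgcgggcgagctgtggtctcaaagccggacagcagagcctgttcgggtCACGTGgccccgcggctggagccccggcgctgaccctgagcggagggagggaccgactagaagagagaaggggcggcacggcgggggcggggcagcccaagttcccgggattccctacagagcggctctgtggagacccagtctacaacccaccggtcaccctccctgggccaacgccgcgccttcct
Tbx20: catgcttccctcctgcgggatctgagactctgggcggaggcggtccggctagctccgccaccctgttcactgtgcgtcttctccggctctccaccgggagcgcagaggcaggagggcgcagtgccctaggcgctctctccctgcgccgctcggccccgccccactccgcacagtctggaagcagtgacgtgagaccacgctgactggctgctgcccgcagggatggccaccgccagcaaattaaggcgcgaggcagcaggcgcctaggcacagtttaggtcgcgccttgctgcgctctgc
The Gata5 window held 1 E-box, in the form CACGTG, and the Tbx20 window held none. Among 32851 promoters of this length, 72.3% held at least 1 match and the median was 1. The form CATCTG, which is itself a CANNTG match, the GATA motifs AGATAA and TGATAA and the T-box motif AGGTGT were also searched on both strands. None had a match in either window, against 17.2%, 11.2%, 9.05% and 13.7% of all promoters. Both windows were rich in G and C, at 69.7% and 68.3% against a median of 52.7%, and each held 26 CG pairs against a median of 7. These matches describe the letters of the windows only.

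In the GENCODE M21 annotation of GRCm38, Tbx20 (ENSMUSG00000031965) lay at chr9:24718138-24774303 and Gata5 (ENSMUSG00000015627) at chr2:180325133-180334699, both on the minus strand. Tbx3 (ENSMUSG00000018604, chr5:119670669-119684724) and Tbx5 (ENSMUSG00000018263, chr5:119832668-119885219) were neighbours on the plus strand of chromosome 5. Gata4 (ENSMUSG00000021944) lay at chr14:63198922-63271692 on the minus strand and Tbx2 (ENSMUSG00000000093) at chr11:85832551-85841948 on the plus strand. Gata5, Gata6 and Tbx3 each overlapped an antisense gene that was not among the counted features.

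After filtering, 8877 control cells with a median of 16240 UMIs and 11534 H2CKO cells with a median of 13439 UMIs were used. A UMI is 1 counted RNA molecule, and levels are UMIs summed over the cells of a class and library, per 1000000 UMIs of those cells (CPM). Cells were clustered without any Gata, Tbx or Hand gene, and clusters were named from marker lists. The classes compared were endothelial-like (383 control and 753 H2CKO cells), mesenchymal-like (1611 and 1076), epicardial-like (678 and 210) and cardiomyocyte-like (2950 and 4261). Endothelial-like cells had 18 of 19 endothelial markers at 20 CPM or more in the control and 19 of 19 in H2CKO. Each genotype is 1 library, so there is no replicate check and no test of genotype, and each interval is a 95% interval for counting error only. The genotype ratio is log2 of H2CKO CPM plus 5 over control CPM plus 5. Folds are plain ratios of the CPM values with nothing added, so at low levels they are larger than the log2 ratio implies. Calls rest on the log2 ratio. A gene needed at least 20 CPM and 20 UMIs in its higher library, and it was called lower or higher at a log2 ratio of 1 or more in size, a 2-fold difference. The median ratio over all genes that met this minimum was below 0 in every class, at -0.28 in endothelial-like, -0.24 in mesenchymal-like, -0.22 in epicardial-like and -0.17 in cardiomyocyte-like cells, and members' ratios are to be read against it.

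All 7 genes were nearly absent from erythroid-like cells, which are not known to make them and which are taken here as a guide to free RNA in the droplets. There the highest level was that of Tbx20, at 7.48 CPM in the control (12.8% of cells with a UMI, median 18332 UMIs per cell) and 2.64 CPM in H2CKO (3.56%, median 13226 UMIs). The other 6 genes were at 4.26 CPM or less in both libraries. A level elsewhere that is no higher than the same gene's level in erythroid-like cells of the same library cannot be read as expression.

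Gata4, which is required for heart formation and for the change of endocardium into cushion mesenchyme, was highest in mesenchymal-like cells. In the control it stood at 209.5 CPM in mesenchymal-like (95% interval 203.6 to 215.5), 180.3 in endothelial-like (169.95 to 191.0), 102.3 in epicardial-like (96.4 to 108.4) and 76.8 in cardiomyocyte-like cells (74.6 to 79.0). In H2CKO the levels were 132.7, 80.0, 70.5 and 61.2 CPM. The order of classes was the same in both libraries, but in H2CKO the intervals of the endothelial-like (74.5 to 85.9) and epicardial-like levels (60.3 to 82.0) overlapped, as did those of the epicardial-like and cardiomyocyte-like levels (59.6 to 62.9).

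Gata5, a factor of the endocardium and of the valves that form from it, had another order in the control. It was highest in endothelial-like cells at 72.6 CPM, followed by mesenchymal-like at 40.7, epicardial-like at 31.8 and cardiomyocyte-like at 11.8. In H2CKO the endothelial-like level was 21.2 CPM (18.4 to 24.3), under the mesenchymal-like level of 29.3 (26.2 to 32.6) and the epicardial-like level of 33.8 (26.8 to 42.0). The last 2 did not differ beyond their intervals. Gata6, which is needed for the outflow tract, stood in the control at 436.1 CPM in mesenchymal-like, 277.5 in epicardial-like, 185.6 in endothelial-like and 138.9 in cardiomyocyte-like cells. In H2CKO it was at 267.6, 217.5, 100.3 and 127.7 CPM, so that endothelial-like cells became the lowest of the 4.

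Tbx20, a factor of endocardium, cushions and muscle that restrains Tbx2, was highest in mesenchymal-like cells, at 525.9 CPM in the control (516.6 to 535.4) and 248.1 in H2CKO (239.1 to 257.5). Endothelial-like cells followed in the control at 270.4 CPM but stood at 63.4 in H2CKO. Cardiomyocyte-like cells were at 190.2 and 104.8 CPM and epicardial-like cells at 63.8 and 60.5. The endothelial-like class therefore fell from the second place to level with epicardial-like cells, where the H2CKO interval was 51.1 to 71.2.

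The remaining T-box genes were low in whole classes. Tbx5, an activator of atrial and left ventricular genes, was highest in cardiomyocyte-like cells at 37.1 CPM in the control and 28.9 in H2CKO. Its mesenchymal-like and epicardial-like levels did not differ beyond their intervals, which were 11.6 to 14.6 CPM and 10.9 to 15.3 CPM in the control, and stood at 10.5 and 10.9 CPM in H2CKO. The endothelial-like level was 13.3 CPM in the control and 1.98 CPM in H2CKO, under the minimum in both. Tbx2 and Tbx3 were highest in mesenchymal-like cells, at 26.0 and 29.3 CPM in the control and 10.0 and 17.8 in H2CKO. Cardiomyocyte-like cells were next, with Tbx2 at 9.70 and 8.84 CPM and Tbx3 at 12.0 and 9.42. In H2CKO the Tbx2 intervals of the 2 classes overlapped (8.27 to 12.05 and 8.22 to 9.51 CPM), so their order there does not hold beyond counting error. In endothelial-like cells both stood at 2.53 CPM or less in either library.

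**Figure D1:**
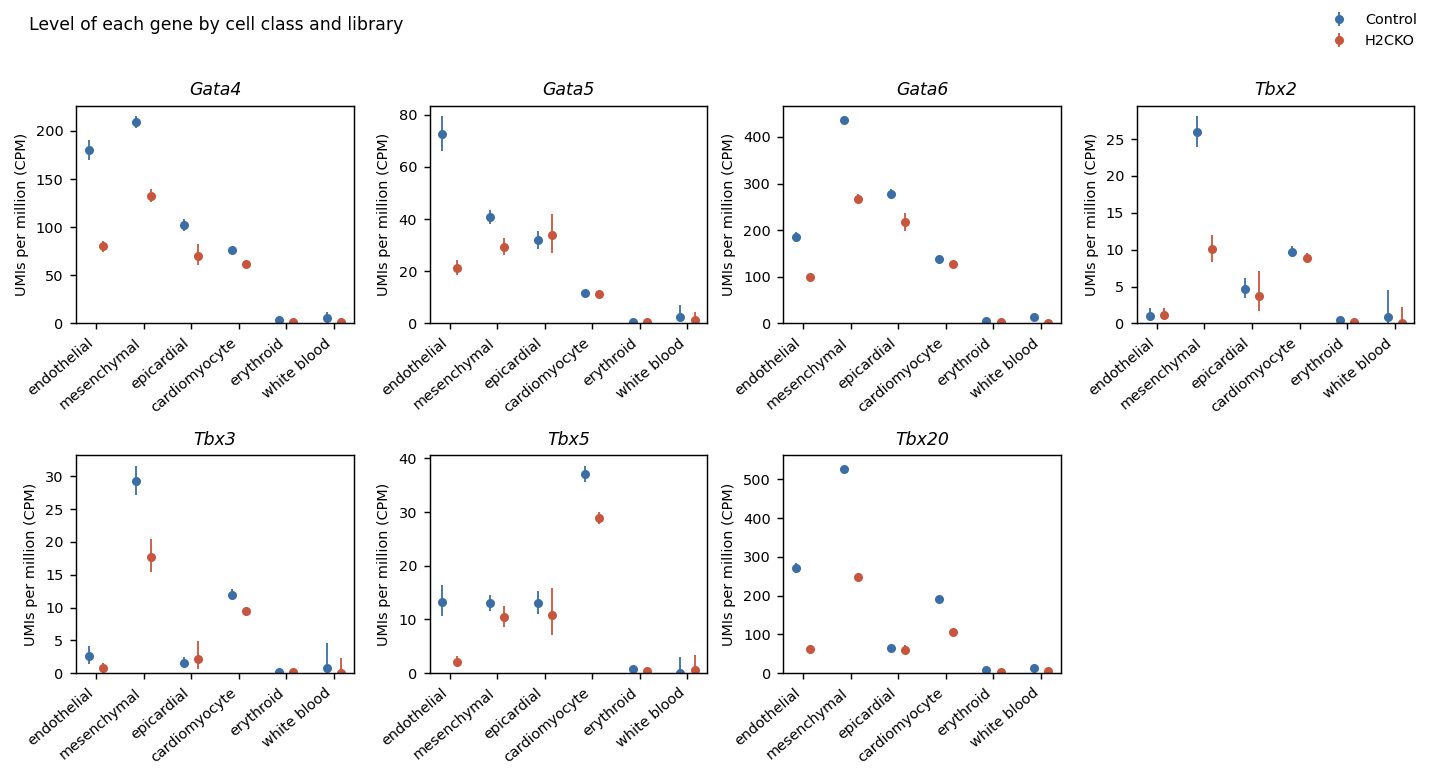
Level of each gene in CPM by cell class, for the control (blue) and H2CKO (red) libraries, with bars for the 95% Poisson interval of counting error. Tbx20 stands at 270.4 CPM in control and 63.4 CPM in H2CKO endothelial-like cells, while its 2 epicardial-like points, 63.8 and 60.5 CPM, overlap.

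In endothelial-like cells, 3 of the 4 members that met the minimum fell past 2-fold and none rose, where 7.2% of all 6529 tested genes fell past 2-fold and 0.796% rose. Tbx20 fell 4.27-fold (3.89 to 4.69), Gata5 fell 3.43-fold (2.90 to 4.06) and Gata4 fell 2.25-fold (2.05 to 2.47), with log2 ratios of -2.01, -1.57 and -1.12. The Gata4 call held under 14 of 19 other settings and ended under median-of-ratios scaling (-0.83), TMM scaling (-0.79), with only H2CKO cells with a GFP UMI (-0.97), with subclusters weighted equally (-0.78) and with the gene-span trend taken out (-0.64). Gata6 had a log2 ratio of -0.86. Hand2 itself fell 20.04-fold, from 224 to 11.2 CPM. The class held 2 clusters in different shares, however, so the pooled ratios mix the genotype with the makeup of the class, and each cluster is therefore given alone. An Emcn-rich cluster, led by the endothelial genes Emcn, Plvap and Kdr, held 125 control and 488 H2CKO cells. A Klf2-rich cluster, led by Klf2, Wnt4 and Nts, held 258 and 265.

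In the Emcn-rich cluster, the counts for Gata5 were 126 UMIs in the control and 27 in H2CKO, which is 60.8 CPM (50.7 to 72.4) against 4.25 CPM (2.80 to 6.18). Gata5 therefore fell 14.3-fold (9.39 to 22.6), a log2 ratio of -2.83, and 0.175% of the tested genes in this cluster had a lower ratio. Tbx20 had 170 and 64 UMIs, which is a level of 82.1 (70.2 to 95.4) against 10.1 CPM (7.76 to 12.9). Tbx20 fell 8.15-fold (6.08 to 11.04) and had a log2 ratio of -2.53. Its H2CKO level was above the 2.64 CPM of erythroid-like cells in the same library. Tbx5 had 68 and 10 UMIs, or 32.8 CPM (25.5 to 41.6) and 1.57 CPM (0.755 to 2.89). It fell 20.9-fold (10.7 to 45.5) and had a log2 ratio of -2.53. These 3 genes met the minimum of 20 CPM only through the control, so a low H2CKO level was the only way for them to be counted as different in this direction.

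The other GATA factors differed less in the same cluster. Gata4 had 97.5 CPM in the control (84.6 to 112.0) and 43.4 in H2CKO (38.5 to 48.9), a fall of 2.25-fold. Gata6 stood at 170.5 (153.1 to 189.2) against 102.8 CPM (95.03 to 110.95). Its log2 ratio, -0.70, was not past 2-fold. With Gata5, Tbx5 and Tbx20, 4 of the 5 tested members fell and none rose, against 7.94% of 6298 tested genes lower and 1.4% higher. Tbx2 and Tbx3 had 10 UMIs or fewer in each library there. The Gata4 ratio was past 2-fold under 12 of 16 other settings, from -1.21 to -0.62, and those of Gata5, Tbx5 and Tbx20 under all 16. These counts are of ratios only: with a minimum of 100 CPM none of the 4 genes was tested in this cluster, so none was called. Settings that changed only the minimum left every ratio as it was.

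The same differences appeared in the shares of cells when cells were thinned to 5000 UMIs, which removes the difference in depth. Cells with fewer UMIs than that were left out. Gata5 was then detected in 26.3% of 118 control cells and 1.74% of 459 H2CKO cells of the Emcn-rich cluster. Before thinning it was detected in 49.6% of all 125 and 4.51% of all 488 cells. Tbx20 was detected in 30.5% and 3.49%, Tbx5 in 20.3% and 1.09% and Gata4 in 32.2% and 19.0% of the thinned cells. The shares in thinned erythroid-like cells were 4.25% and 1.38% for Tbx20, 0.190% and 0.188% for Gata5 and 0.455% and 0.125% for Tbx5. In H2CKO the shares in the Emcn-rich cluster were thus low but above those of erythroid-like cells, with intervals of 2.01% to 5.60% for Tbx20 and 0.755% to 3.41% for Gata5. Free RNA need not be equal in both: summed cardiomyocyte markers in H2CKO were at 1691 CPM in this cluster and 1166 CPM in erythroid-like cells.

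Values that moved beside these results were those of marker lists. In the Emcn-rich cluster the summed level of 18 mesenchymal markers was 1636 CPM in the control and 559 CPM in H2CKO, with 8 and 5 of them at 20 CPM or more and Prrx1 at 0 in the control. The sum of 19 endothelial markers was 5613 and 5569 CPM, that of 14 cardiomyocyte markers 1522 and 1691 CPM, and that of 12 erythroid markers 32060 and 42843 CPM. The part of the mesenchymal and erythroid transcripts in the GATA and T-box ratios was not tested. A subset was read for the endocardium, in which Npr3 and Nfatc1 are made: 112 of 125 control and 323 of 488 H2CKO cells of the cluster had a UMI of either gene. In that subset Gata5 was at 65.4 and 4.87 CPM, Tbx20 at 86.7 and 11.01 and Tbx5 at 32.2 and 2.12. In erythroid-like cells 1.72% of control and 0.644% of H2CKO cells had such a UMI, but so did 44.5% and 14.8% of epicardial-like cells, so it does not mark endocardium alone. The 13 control and 165 H2CKO cells of the cluster without one were too few for a comparison: Gata5 had 0 and 4 UMIs, Tbx20 stood at 20.8 CPM (4.30 to 60.9) and 7.35 CPM (3.80 to 12.8), Gata4 at 41.7 and 35.5 and Gata6 at 48.6 (19.5 to 100.2) and 93.1 CPM (78.9 to 109.1).

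In the Klf2-rich cluster the ratios of Gata4, Gata5 and Tbx20 were smaller in size than in the Emcn-rich cluster, and that of Gata6 was larger. Gata5 stood at 78.3 CPM in the control (70.1 to 87.2) and 54.5 in H2CKO (46.8 to 63.2), a log2 ratio of -0.48. Gata4 was at 220.5 and 152.2 CPM (-0.52) and Gata6 at 193.0 and 95.4 CPM (-0.98). Tbx20 fell 2.15-fold (1.95 to 2.38), from 362.1 CPM (344.2 to 380.6) to 168.3 CPM (154.4 to 183.0), and was the 1 of 4 tested members past 2-fold, against 3.23% of 6569 tested genes lower and 0.624% higher. It was past 2-fold under 11 of 16 other settings, with ratios from -1.15 to -0.72, and not with cells thinned to 5000 UMIs (-0.94). The summed mesenchymal markers were 4644 and 2109 CPM in this cluster, the erythroid markers 17750 and 52827 CPM and the 12 white blood cell markers 11.99 and 110.9 CPM. The epicardial markers summed to 87.0 and 48.3 CPM, the cardiomyocyte markers to 2461 and 2076 CPM and the endothelial markers to 6922 and 6317 CPM. Their part in the ratios was not tested. Hand2 was at 249 and 7.44 CPM here and at 171 and 13.1 CPM in the Emcn-rich cluster. Whether the GATA and T-box ratios differ between the clusters was not tested, since each rests on 1 library per genotype.

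A finer split of the endothelial-like cells placed the Gata5 difference further. In a subcluster led by Nr2f2, Lbp and Hmcn1 (79 control and 272 H2CKO cells), Gata5 was at 93.1 and 3.77 CPM and Tbx20 at 212.0 and 9.81. In a subcluster with cycling genes such as Cenpf and Spc25 (71 and 152 cells), Gata5 was at 71.3 and 5.86 CPM and Tbx20 at 93.5 and 11.7. Both genes were thus low in H2CKO in these 2 subclusters. A subcluster led by Krt79, Rbp7, Fbln2, Has2 and Sox9 (157 and 180 cells) had Gata5 at 72.6 and 70.9 CPM, with a ratio interval of 0.81 to 1.30 for control over H2CKO. In it Tbx20 was at 435.0 and 229.4 CPM, a log2 ratio of -0.91. An endocardial-like subcluster (55 and 68 cells) had Gata5 at 71.6 and 41.6 CPM (-0.72), Gata6 at 153.9 and 73.0 CPM (-1.03) and Tbx20 at 254.7 and 100.2 CPM (-1.30). The differences between subclusters were not tested.

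**Figure D2:**
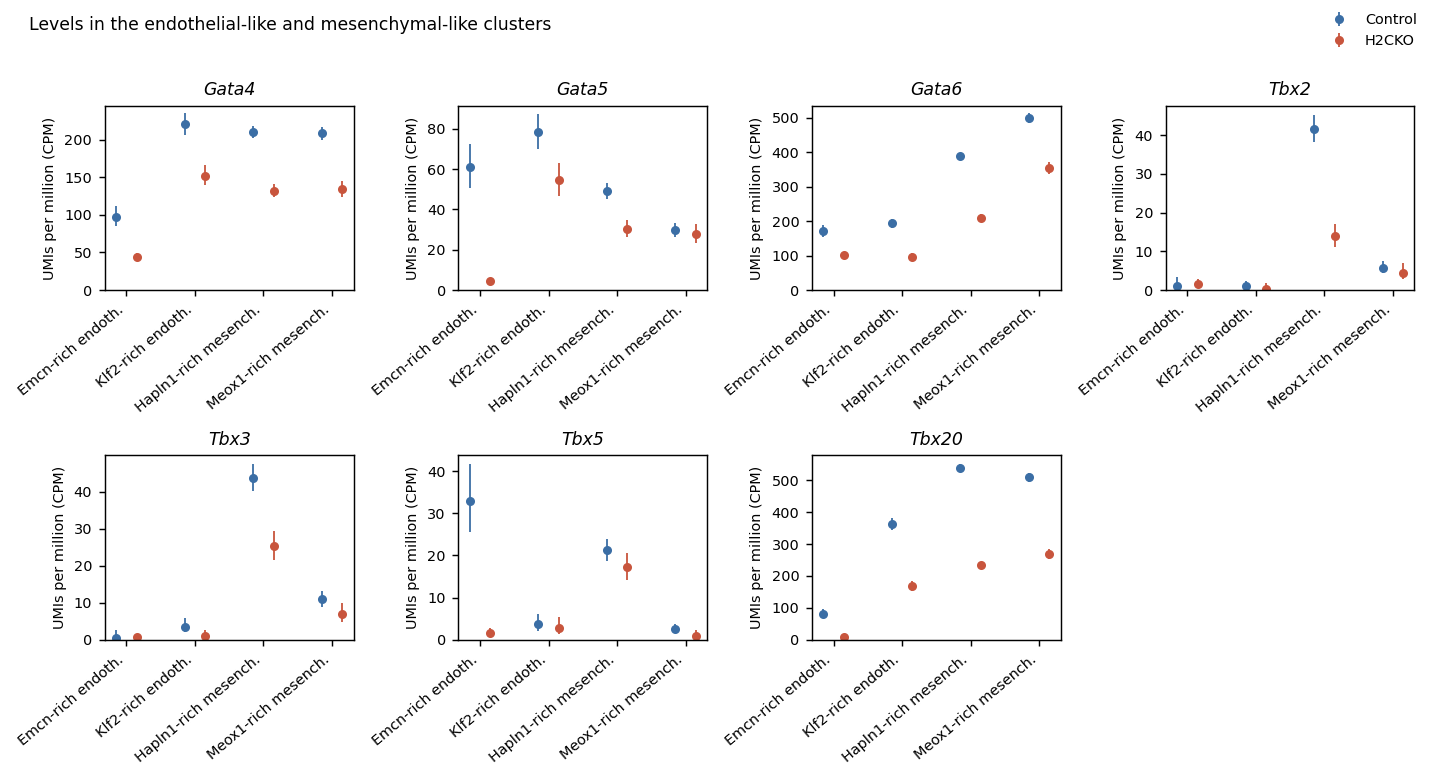
Levels in CPM in the 2 endothelial-like and 2 mesenchymal-like clusters, control in blue and H2CKO in red, with 95% Poisson intervals. Gata5 in the Emcn-rich cluster goes from 60.8 to 4.25 CPM, against 78.3 to 54.5 CPM in the Klf2-rich cluster, and Tbx2 and Tbx3 are highest in the Hapln1-rich mesenchyme.

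Within the H2CKO library, cells with a UMI of GFP, the Cre reporter, were set beside cells without one. A GFP UMI does not mark a cell as recombined, since 5.23% of erythroid-like and 15.04% of cardiomyocyte-like H2CKO cells also had one (median 13226 and 16981 UMIs per cell), as did 25 of the 125 control cells of the Emcn-rich cluster. In the Emcn-rich cluster, 296 cells had a GFP UMI (median 11277 UMIs) and 192 had none (median 9808 UMIs). Tbx20 was at 10.1 CPM in both, Gata4 at 44.2 and 42.1 and Gata6 at 102.9 and 102.4, so these levels did not differ beyond counting error. Gata5 was at 2.40 CPM (1.15 to 4.41) with GFP and 7.77 (4.53 to 12.4) without, and Hand2 was at 9.36 and 20.1 CPM. In the Klf2-rich cluster 233 cells had a GFP UMI and 32 had none, with Gata6 at 88.4 CPM (78.0 to 99.7) and 188.5 CPM (136.4 to 253.9) and Tbx20 at 163.7 (149.6 to 178.9) and 228.0 (170.3 to 299.0). Absence of a GFP UMI does not show that Cre did not act either, since it depends on depth.

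Mesenchymal-like cells carried the highest Gata6 and Tbx20 levels of the classes, and 2 of the 6 members tested in mesenchymal-like cells fell past 2-fold, against 3.56% of 6536 tested genes lower and 0.459% higher. Tbx20 fell 2.12-fold (2.03 to 2.21) from its 525.9 CPM in the control, and Tbx2 fell 2.59-fold (2.12 to 3.19) from its 26.0 CPM. Tbx2 met the minimum only through the control. The log2 ratios of Gata4, Gata5, Gata6 and Tbx3 were -0.64, -0.41, -0.69 and -0.59, beside the median of -0.24 over all tested genes. Both calls lay close to the threshold, at -1.07 for Tbx20 and -1.04 for Tbx2. Over 18 other settings the ratio was past 2-fold in 12 for Tbx20 and in 10 for Tbx2. Among those that ended both calls was scaling of the libraries by edgeR's TMM factors, at -0.79 and -0.85. Summed mesenchymal markers were 9765 CPM in the control and 5040 CPM in H2CKO, and summed erythroid markers 11451 and 55239 CPM. Their part in these ratios was not tested.

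The mesenchyme also held 2 clusters. A Hapln1-rich cluster, led by the cushion genes Hapln1, Sox9, Twist1 and Col9a3, had 945 control and 660 H2CKO cells. A Meox1-rich cluster, led by Meox1, Tgfbi, Inhba and Postn, had 666 and 416. Summed smooth muscle markers were 2550 and 2806 CPM in the latter, against 549 and 558 CPM in the former. In the control the T-box repressors were concentrated in the Hapln1-rich cluster, with Tbx2 at 41.6 CPM against 5.79 in the Meox1-rich one and Tbx3 at 43.6 against 10.9. Tbx5 followed the same pattern, at 21.2 and 2.49 CPM. Gata4 (210.5 and 208.1 CPM) did not differ between the clusters beyond counting error, Tbx20 stood at 538.2 and 510.0 CPM and Gata6 went the other way, at 387.5 and 498.8 CPM.

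In the Hapln1-rich cluster all 7 genes met the minimum, and 2 of 7 fell past 2-fold, against 5.81% of 6488 tested genes lower and 0.555% higher. Tbx2 fell 3.00-fold (2.41 to 3.79) to 13.9 CPM, with 537 UMIs in the control and 93 in H2CKO, and met the minimum only through the control. Tbx20 fell 2.31-fold (2.18 to 2.44) to 233.3 CPM. The other settings were not run for this cluster, so whether these 2 calls hold under them is not known. Tbx3 was at 25.2 CPM in H2CKO (-0.69), Gata6 at 207.9 (-0.88), Gata4 at 131.7 (-0.66), Gata5 at 30.4 (-0.61) and Tbx5 at 17.1 (-0.24). Tbx5, with the smallest ratio of the 7, was the one near the median of all tested genes (-0.27). Hand2 fell from 177 to 14.01 CPM. The 18 mesenchymal markers summed to 9655 CPM in the control and 4195 CPM in H2CKO in this cluster, and their part in the ratios was not tested. In this cluster 353 H2CKO cells had a GFP UMI and 307 had none, and Tbx2 was at 12.8 CPM (9.39 to 17.1) and 15.04 CPM, Tbx20 at 239.2 and 226.6 and Tbx5 at 20.6 (16.2 to 25.9) and 13.1 (9.41 to 17.8).

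In the Meox1-rich cluster none of the 4 tested members passed 2-fold, against 2.81% of 6508 genes lower and 0.353% higher. Tbx20 was at 510.0 and 269.5 CPM (-0.91), Gata4 at 208.1 and 134.2 (-0.61), Gata6 at 498.8 and 353.6 (-0.49) and Gata5 at 29.7 and 27.7 (-0.09). Hand2 was at 184 and 94.3 CPM (-0.93) there, and 56 of its 416 H2CKO cells had a GFP UMI (13.5%), a share no higher than in cardiomyocyte-like cells. Hand2 was at 91.5 CPM (70.7 to 116.4) in the cells with one and 94.8 CPM (85.4 to 104.9) in those without, so a GFP UMI did not go with a lower Hand2 level there. Gata5 in this cluster thus differed by less than counting error, with an interval for control over H2CKO of 0.87 to 1.33.

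**Figure D3:**
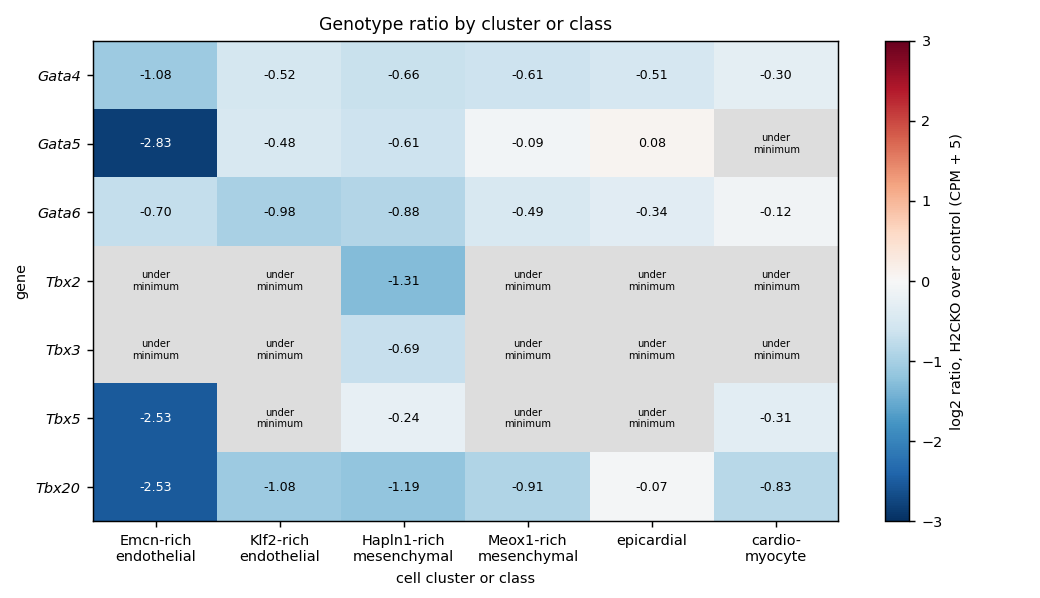
Genotype ratio, as log2 of H2CKO over control (CPM + 5), for each gene (rows) in 4 clusters and 2 classes (columns), with blue for lower in H2CKO and grey where neither library met the minimum. The lowest cells are Gata5 (-2.83), Tbx5 (-2.53) and Tbx20 (-2.53) in the Emcn-rich endothelial cluster, and the epicardial column lies between -0.51 and 0.08.

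Epicardial-like cells, which form the outer layer of the heart, showed the smallest Tbx20 difference of the 4 classes. None of the 4 tested members passed 2-fold, against 4.75% of 6297 tested genes lower and 0.969% higher. Tbx20 was at 63.8 CPM in the control (59.1 to 68.7) and 60.5 in H2CKO (51.1 to 71.2), and Gata5 at 31.8 (28.5 to 35.3) and 33.8 (26.8 to 42.0). Neither gene differed beyond counting error. Gata4 was at 102.3 and 70.5 CPM (-0.51) and Gata6 at 277.5 and 217.5 (-0.34), beside a median ratio of -0.22. Hand2 was at 125 and 114 CPM. In these cells 12 erythroid markers summed to 11348 CPM in the control and 47652 CPM in H2CKO, 8 megakaryocyte markers to 13.1 and 148.6 CPM, 9 smooth muscle markers to 615 and 889 CPM and 14 cardiomyocyte markers to 6408 and 7938 CPM, and their part in the ratios was not tested.

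In cardiomyocyte-like cells, where Nfatc1-Cre is not known to act and Hand2 was at 81.4 and 74.2 CPM, Tbx20 was the member with the largest ratio. Its level was 190.2 CPM in the control (186.8 to 193.7) and 104.8 in H2CKO (102.6 to 107.0), a log2 ratio of -0.83 that was not past 2-fold, and 2.02% of the 5557 tested genes had a lower ratio. Summed markers of other cells also moved in this class: 18 mesenchymal markers were at 671 and 381 CPM, 9 smooth muscle markers at 4522 and 3123 CPM, 12 erythroid markers at 15574 and 26568 CPM and 12 white blood cell markers at 8.58 and 44.6 CPM. Their part in the Tbx20 ratio was not tested. No member passed 2-fold in either direction, where 0.666% of genes fell and 0.162% rose. At 5000 UMIs per cell Tbx20 was detected in 54.0% of 2296 control and 38.8% of 3978 H2CKO cells. These were the cells with at least that many UMIs, out of 2950 and 4261. Gata4 stood at 76.8 and 61.2 CPM (-0.30), Tbx5 at 37.1 and 28.9 (-0.31) and Gata6 at 138.9 and 127.7 (-0.12), all near the class median of -0.17. Over 19 other settings the Tbx20 ratio ran from -1.09 to -0.56 and passed 2-fold in 2 of them: -1.06 with a stricter cell filter and -1.09 with subclusters weighted equally.

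**Figure D4:**
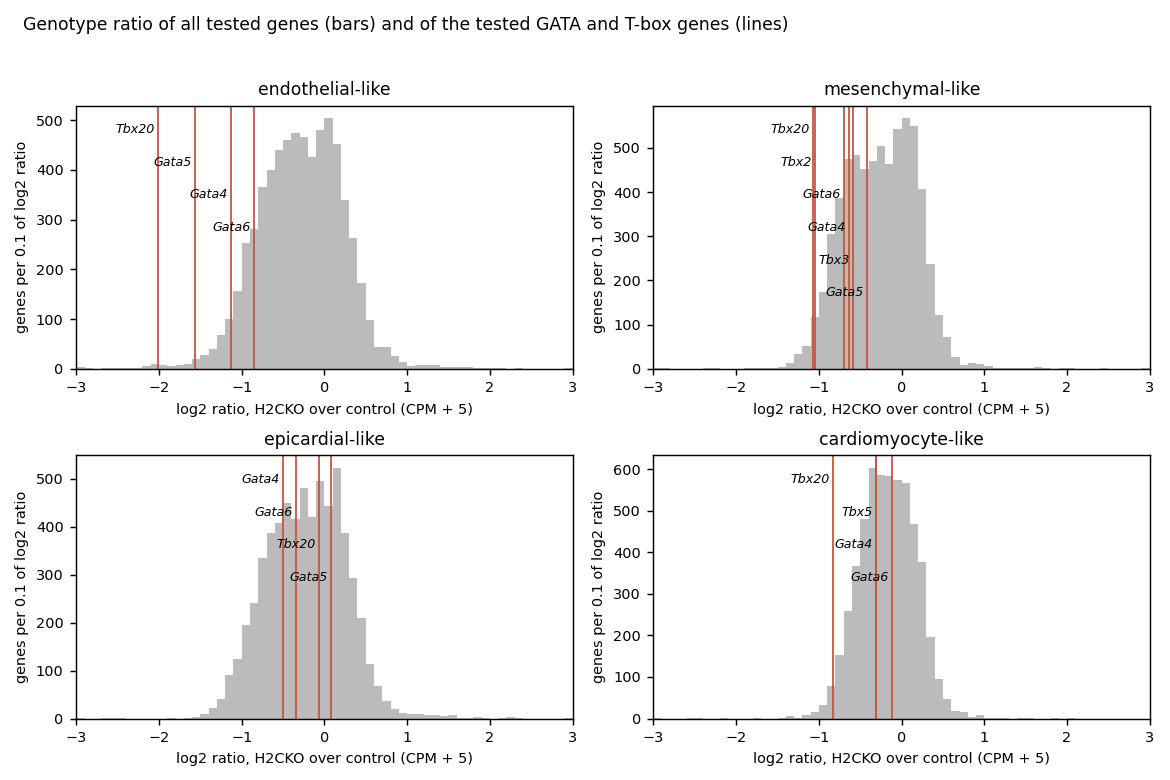
Number of tested genes by genotype ratio (log2, H2CKO over control, CPM + 5) in 4 cell classes, with red lines at the tested GATA and T-box genes. In endothelial-like cells Tbx20 (-2.01) and Gata5 (-1.57) lie in the low tail, and in cardiomyocyte-like cells Tbx20 (-0.83) lies apart from Gata4, Gata6 and Tbx5 (-0.31 to -0.12).

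The regions of the myocardium were separated as subclusters made without these genes, and in them the T-box genes were patterned. An atrioventricular canal-like subcluster (93 control and 165 H2CKO cells), led by Bmp2, Gal and Rspo3, had the highest Tbx2 and Tbx3. Tbx3 was at 183.4 CPM in the control (164.5 to 204.0) and 111.7 in H2CKO (99.2 to 125.2), and Tbx2 at 62.8 (51.9 to 75.2) and 53.5 (45.0 to 63.2). The outflow tract-like subcluster (362 and 415 cells) came next for both, with Tbx2 at 23.5 and 27.1 CPM and Tbx3 at 19.4 and 12.5. In a trabecular ventricular-like subcluster, of cells from the inner ridges of the ventricles, Tbx2 was at 1.98 and 2.14 CPM and Tbx3 at 2.09 and 5.13. Of the subclusters compared, both repressors were thus highest in canal-like cells in both libraries.

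Tbx5 was patterned in another way. In the control it was highest in the canal-like cells at 152.3 CPM (135.1 to 171.1) and in an atrial-like subcluster at 138.2 CPM (122.8 to 155.1), whose intervals overlapped. It was at 48.2 CPM in trabecular-like cells, 37.8 in a subcluster led by the cell-cycle genes Prc1 and Top2a, and 12.4 and 11.6 in outflow tract-like cells and in a subcluster led by Tnni2 and Ckm. In H2CKO the canal-like level was 95.99 CPM (84.5 to 108.6, log2 ratio -0.64) and the trabecular-like level 43.4 CPM (-0.14). The atrial-like subcluster held 111 control cells but 3 H2CKO cells, so it was not compared. Without it, the Tbx5 ratio over all cardiomyocyte-like cells was -0.19 in place of -0.31.

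**Figure D5:**
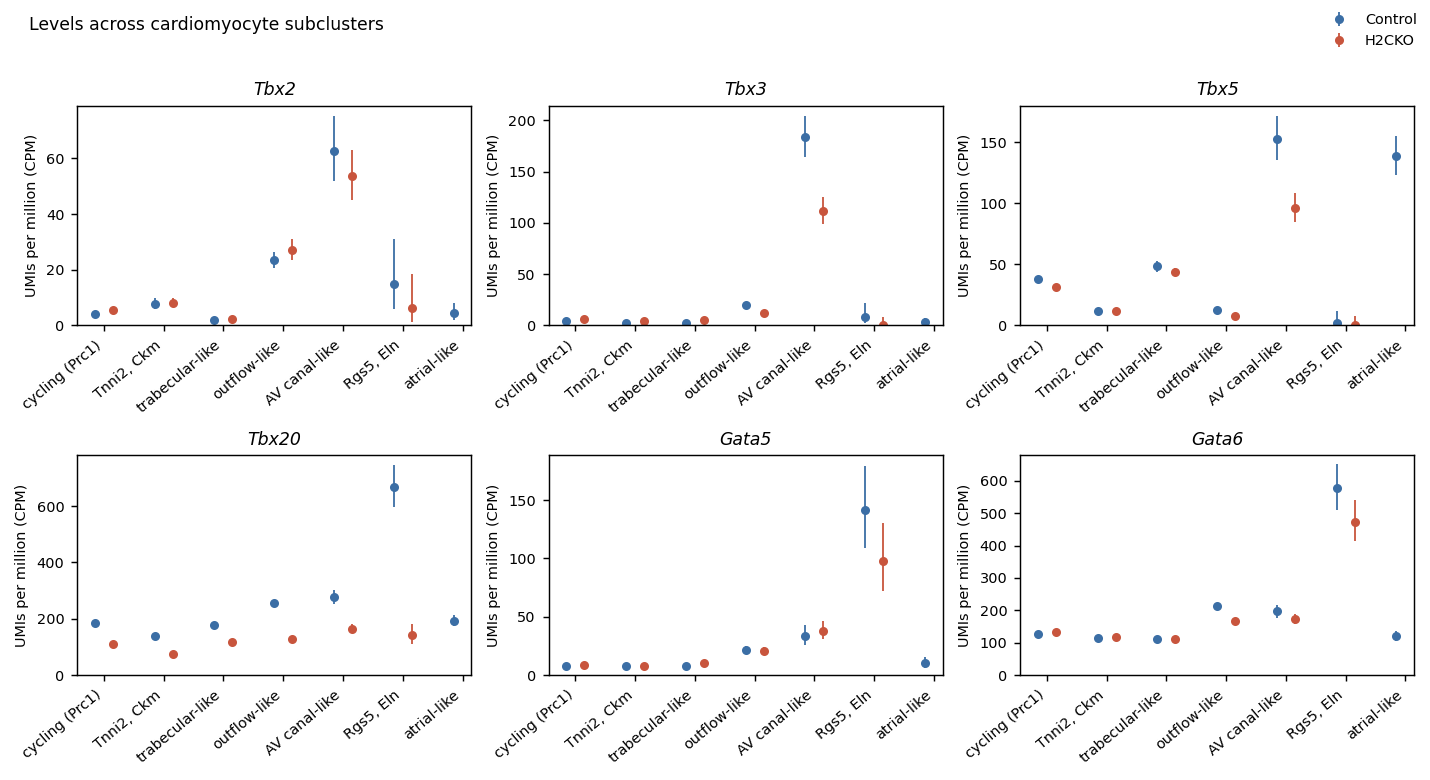
Levels in CPM of 6 genes across cardiomyocyte subclusters, control in blue and H2CKO in red, with 95% Poisson intervals. Tbx2 and Tbx3 peak in the atrioventricular canal-like cells, Tbx5 in canal-like and atrial-like cells, and the red Tbx20 points lie under the blue ones in every subcluster that was compared.

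Tbx20 had a ratio below 0 in each of the 8 cardiomyocyte subclusters compared. It was at 276.2 CPM in the control and 163.7 in H2CKO in canal-like cells (-0.74), at 254.6 and 129.2 in outflow tract-like cells (-0.95) and at 177.8 and 119.0 in trabecular-like cells (-0.56). The cycling subcluster was at 186.1 and 109.1 CPM (-0.74) and the one led by Tnni2 and Ckm at 137.1 and 73.2 CPM (-0.86). Whether the ratios differ between regions was not tested. The smallest, -0.48, was in a shallow subcluster with a median of 1720 UMIs per cell. A small unnamed subcluster was led by Rgs5, Eln, Cthrc1 and Col3a1 (57 and 77 cells), and in it Tbx20 fell 4.64-fold (3.56 to 6.11), from 667.6 to 143.9 CPM, where 14.3% of 4531 tested genes fell past 2-fold and 2.8% rose. In the same cells Gata5 was at 141.2 and 98.01 CPM and Gata6 at 577.7 and 473.4. None of the 10 leading genes of these cells was a marker of the regional list they scored best on and 3 were markers of 1 other list, so their leading genes go against the cardiomyocyte class they were grouped in.

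Gata4 and Gata6 also varied between the subclusters. Gata4 ran in the control from 44.6 CPM in the shallow subcluster to 134.8 in the one led by Rgs5 and Eln, neither of which is a named region. Canal-like cells were at 108.9 CPM. Gata6 was at 213.3 and 167.8 CPM in outflow tract-like and 196.3 and 172.5 in canal-like cells, against 110.6 and 112.3 in trabecular-like cells. In canal-like cells all 7 genes met the minimum and none passed 2-fold, against 1.81% of 6121 tested genes lower and 0.408% higher. Tbx20, Tbx3 and Tbx5 had the largest ratios there, at -0.74, -0.69 and -0.64, and Gata5 was at 33.3 and 37.9 CPM (0.16).

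Genes that the annotation makes longer had lower ratios over the whole genome. The rank correlation of the ratio with gene span over the tested genes was -0.49 in endothelial-like, -0.56 in mesenchymal-like, -0.54 in epicardial-like and -0.50 in cardiomyocyte-like cells, as a description across genes that share 2 libraries. Tbx20 spans 56166 bases, more than 79.4% of counted genes, while Gata5 spans 9567 bases. With the trend taken out, Tbx20 stood at -1.57 in endothelial-like, -0.66 in mesenchymal-like, 0.31 in epicardial-like and -0.56 in cardiomyocyte-like cells, and Gata5 at -1.44 in endothelial-like cells. This setting ended the calls of Tbx20 and Tbx2 (-0.95) in mesenchymal-like cells, of Gata4 in endothelial-like cells (-0.64) and in the Emcn-rich cluster (-0.62), and of Tbx20 in the Klf2-rich cluster (-0.72).

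Co-detection in the same cell was counted at 5000 UMIs per cell, in the cells that had at least that many. In control cells of the Hapln1-rich mesenchyme, Tbx3 was found in 26.7% of the 172 cells with Tbx2 and in 15.8% of all 904, so cells with one repressor held the other more often than the average cell. In canal-like control cells the 2 shares were 55.6% and 54.0%. In the Emcn-rich control cells, Tbx20 was found in 51.6% of the 31 cells with Gata5 and in 30.5% of all 118. In H2CKO, 1 of the 8 cells with Gata5 also held Tbx20. These shares have no test, and cells of a library are not replicates.

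Across the 19 clusters with enough cells, both libraries pooled, the GATA genes and Tbx20 followed one another closely. Pearson's r of log2(CPM + 5) was 0.98 for Gata4 with Gata6, 0.97 for Gata4 with Tbx20 and 0.92 for Gata4 with Gata5. Among the pairs without Gata4, r was 0.95 for Gata6 with Tbx20, 0.90 for Gata5 with Gata6 and 0.85 for Gata5 with Tbx20. It was 0.90 for Tbx2 with Tbx3 and between 0.47 and 0.68 for Tbx5 with each of the other members. Among 8395 genes, the closest pattern to Gata4 was that of Map1b (0.99), to Gata5 that of Dennd2a (0.98), to Gata6 that of Nrep (0.99) and to Tbx20 that of Vcan (0.98), a matrix gene of the cushions. Msx2, a canal gene, was closest to both Tbx2 (0.92) and Tbx3 (0.94), and Cobl was closest to Tbx5 (0.87). The next 2 were Lix1l and Creb3l2 for Gata4, Mmp14 and Nfia for Gata5, Maged1 and Nicn1 for Gata6, Slc24a2 and Tmem132c for Tbx2, Ntf3 and Tmem132c for Tbx3, Gnao1 and Ppp1r14c for Tbx5 and Lrch2 and Rasl11b for Tbx20. Clusters share libraries and depth, so these values describe likeness only.

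Other genes of the families were mostly under the minimum, with 2 of 15 tested in each of the 4 classes and none past 2-fold. Mga, a Max partner with a T-box domain, was tested in all 4 and had log2 ratios between -0.94 and -0.48. Gata2, a factor of endothelium and blood, was at 67.2 and 43.5 CPM in endothelial-like cells (-0.57). Gata3 was at 72.5 and 71.6 CPM in mesenchymal-like cells (-0.02), and Tbx18, a marker of epicardium, at 378.7 and 218.3 CPM in epicardial-like cells (-0.78). In outflow tract-like cardiomyocytes Tbx18 had 312 and 55 UMIs, a log2 ratio of -1.46.

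Of 20 partner factors that act with GATA and T-box proteins, 8 were tested in the Emcn-rich cluster, 3 fell and 1 rose, where 7.94% of all tested genes fell and 1.4% rose, with a median of -0.76 beside -0.25 over all tested genes. Hey1, a Notch target, fell from 49.3 to 15.9 CPM (-1.38) and met the minimum only through the control. Tead1, a Hippo pathway factor, fell from 91.8 to 38.4 CPM (-1.16) and the coactivator Ep300 from 70.0 to 31.9 CPM (-1.02). Mef2c, a factor of muscle and endothelium, rose from 71.95 to 149.0 CPM, just past 2-fold. Nfatc1, whose locus drives the Cre, was at 79.2 and 47.1 CPM there (-0.69) and at 286.1 and 162.4 CPM in the Klf2-rich cluster (-0.80). In the Klf2-rich cluster and in mesenchymal-like cells 9 partners were tested and none passed 2-fold, where 3.23% and 3.56% of all tested genes fell. Of 11 tested in epicardial-like cells, Ep300 fell from 60.1 to 25.0 CPM (-1.12) and Hopx rose from 6.40 to 20.5 CPM (1.16), meeting the minimum only through H2CKO, where 4.75% of all tested genes fell and 0.969% rose. The part of the muscle and blood cell markers given above for those cells in these ratios was not tested. In cardiomyocyte-like cells none of 15 passed, where 0.666% of genes fell and 0.162% rose, with Nkx2-5 at 168.4 and 199.3 CPM (0.24) and Hopx at 239.4 and 397.1 CPM (0.72).

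Reported targets and regulators were led by 3 genes. Sox9, a cushion factor, fell in the Emcn-rich cluster from 27.0 to 3.46 CPM (-1.92), in the Klf2-rich cluster from 133.1 to 57.6 CPM (-1.14) and in Hapln1-rich mesenchyme from 613.1 to 299.5 CPM (-1.02). Has2, which makes the hyaluronan of the cushions, fell in the Klf2-rich cluster from 167.2 to 69.4 CPM (-1.21), in Hapln1-rich mesenchyme from 155.2 to 71.4 CPM (-1.07) and in canal-like cardiomyocytes from 46.7 to 8.80 CPM (-1.90). Nppa, a chamber gene that Tbx5 and Gata4 activate and Tbx2 and Tbx3 repress, rose in cardiomyocyte-like cells from 906.3 to 2146.3 CPM (1.24) and in canal-like cells from 59.5 to 237.9 CPM (1.91). Its ratio was also high in erythroid-like cells (21.1 and 68.1 CPM, 1.48), in the Emcn-rich cluster (20.8 and 72.9 CPM, 1.60) and in mesenchymal-like cells (27.4 and 84.4 CPM, 1.46). Its level outside muscle was thus close to that in erythroid-like cells. Sox9 in the Emcn-rich cluster and Has2 in canal-like cells met the minimum only through the control, so a fall was the only call open to them. Myh6 fell in cardiomyocyte-like cells from 1250.6 to 558.8 CPM (-1.16). That class held 111 atrial-like cells in the control and 3 in H2CKO, and the part of this difference in the Myh6 ratio was not tested. The Myh6 ratio was -1.03, just past the limit, in each of canal-like, trabecular-like and outflow tract-like cells. It was -0.27 in the shallow subcluster. Counted over the list of 26, the Emcn-rich cluster had 1 of 10 tested genes lower (Sox9) and 1 higher, against 7.94% and 1.4% of all tested genes. The Klf2-rich cluster had 3 of 14 lower and 1 higher, against 3.23% and 0.624%. Mesenchymal-like cells had 1 of 16 lower and 1 higher, against 3.56% and 0.459%, and epicardial-like cells had 0 of 12 lower and 3 higher, against 4.75% and 0.969%. Those 3 were the muscle genes Nppa (30.9 and 93.1 CPM), Actc1 (309 and 788 CPM) and Myh7 (57.9 and 177.0 CPM), which in erythroid-like cells stood at 21.1 and 68.1, 277 and 312, and 44.8 and 30.0 CPM, and cardiomyocyte markers as a whole were higher in the H2CKO epicardial-like cells. Cardiomyocyte-like cells had 1 of 15 lower and 1 higher, against 0.666% and 0.162%.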

How the data were processed

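Single-cell RNA was measured in 1 control and 1 H2CKO library of E11.5 mouse hearts. The authors deposited 1 matrix of raw UMI counts for each library; per the file headers, its rows are Ensembl genes and its columns barcodes (14114 control and 13885 H2CKO barcodes with 195825720 and 201477256 UMIs, each barcode with at least 500). They also deposited 2 embedding coordinates per cell for 5408 and 6232 barcodes, a score with no unit, used here only to mark those cells for an alternative. Cell Ranger 5.0.1, Seurat 4 and GRCm38.p6 are named in the submitters' processing notes. How barcodes were called, and with which gene annotation reads were counted, is not given in the sources used here. The libraries share 57 barcode sequences.

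Ensembl IDs gave a symbol for 22285 of 22401 features. Barcodes were kept from 500 detected genes upwards if mitochondrial UMIs made up no more than 10%. Scrublet (scanpy 1.11.5) marked 964 control doublets (9.80%). It marked 0 in H2CKO, where the top 5% by score, 607 cells, were removed instead. Cells were clustered with leidenalg 0.10.2 (resolution 1) on 30 components of 2000 variable genes and 15 neighbours from each library, and no Gata, Tbx or Hand gene, reporter, haemoglobin, mitochondrial or sex-linked gene was among those variable genes. This gave 20 clusters, of which 2 stayed unnamed. Classes with at least 50 cells in each library were compared. Intervals are exact Poisson for levels, exact binomial for shares and exact conditional for ratios (scipy 1.17.1), and cover counting error only. The ratio step was tested on simulated data. TMM factors came from edgeR 4.0.16.

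The members and all lists were chosen with earlier results of these data known. The text names all 7 members, at most 8 genes per list and class (at 20 CPM or more, by the size of the ratio, plus Hand2 and Nfatc1), and the 3 genes of most similar pattern per member. Tbxt, on the list of family genes, was not matched. Subclusters are named by their leading genes. Alternatives changed the cell filter, depth, scaling, totals, summing, pseudocount, minimum, doublets, cells used, clustering, naming and the gene-span trend.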

Additional observations from a re-analysis of the deposited data

How the results depend on the processing

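Each endothelial cluster alone was planned beside the pooled class, which was to give the main value. To the listed alternatives, others were added that were chosen after seeing the data: cells with an Npr3 or Nfatc1 UMI, H2CKO cells with a GFP UMI, no haemoglobin-led, shallow or atrial-like subcluster, subclusters weighted equally, and 5% of doublet scores removed from both libraries. Alternatives were run only for the members, in the compared classes and the separate endothelial clusters. No called ratio changed direction there. Calls in the mesenchymal clusters and in subclusters, and calls of partner and target genes, were not recomputed. The count of members past 2-fold lower in mesenchymal-like cells, 2 as reported, was 0 under median-of-ratios scaling, TMM scaling, totals without haemoglobin and mitochondrial UMIs, cells of the deposited embedding and removal of the gene-span trend. It was 1 with a minimum of 100 CPM, no doublets removed, cells named by their own markers, only H2CKO cells with a GFP UMI, and without subclusters led by haemoglobin genes. In the Klf2-rich cluster the count, 1 as reported, was 0 under median-of-ratios scaling, TMM scaling, the mean of per-cell CPM and removal of the trend, and 2 with a pseudocount of 1 CPM and with only H2CKO cells with a GFP UMI. With cells thinned to 5000 UMIs it was 1 through another gene: Tbx20 was no longer past 2-fold (-0.94) and Gata6 was (-1.07). In the Emcn-rich cluster the count, 4 as reported, was 0 with a minimum of 100 CPM, since fewer genes then met it, and 3 where the Gata4 call ended: with cells thinned to 5000 UMIs (-0.94), median-of-ratios scaling (-0.83), TMM scaling (-0.80) and removal of the trend (-0.62). In endothelial-like cells the count, 3 as reported, was 2 under those scalings, removal of the trend, only H2CKO cells with a GFP UMI and subclusters weighted equally, where the Gata4 call ended, and with a minimum of 100 CPM; it was 4 with no minimum. In cardiomyocyte-like cells the count, 0 as reported, was 1 with a stricter cell filter (1500 genes, 5% mitochondrial UMIs) and with subclusters weighted equally. The cause of the other changes was not tested. The ratio in the Emcn-rich cluster ran over 16 settings from -3.56 to -2.68 for Gata5, from -3.22 to -2.11 for Tbx20 and from -3.72 to -2.12 for Tbx5. Of the ratios under alternatives, 623 moved by less than counting error and 98 by more. These include the settings of a minimum of 100 CPM and of no minimum, which left every ratio as it was by their making. The same settings are among those counted for single genes. Ratios of genes under the minimum, with wide intervals, are included too, so the 623 is no measure of how firm the calls are. A Leiden resolution of 0.5 and naming by own markers gave no value for the separate endothelial clusters. With 1 library per genotype, depth limits levels under about 20 CPM in classes of few cells, such as Tbx2 and Tbx3 in endothelial-like cells. No paired analysis was possible because each genotype has 1 library and no replicate numbers.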

Other observations

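Cells outside the compared classes also held these genes. An unnamed cluster with Tcf21 and Ptn among its leading genes (139 control and 101 H2CKO cells) had Tbx20 at 264.9 CPM in the control and 150.0 in H2CKO, a log2 ratio of -0.80. In it Gata4 was at 137.6 and 96.4 CPM, Gata5 at 66.2 and 44.5 and Gata6 at 237.9 and 164.8. Tbx18, the epicardial T-box gene, was at 165.1 and 75.8 CPM there. Each of the 7 genes had 17 UMIs or fewer in either library of the white blood cell-like class (72 and 101 cells), and none met the minimum. A shallow unnamed cluster (316 and 64 cells, with medians of 1313 and 1208 UMIs) had 105 and 3 UMIs of Tbx20 and 61 and 4 of Gata4, too few in H2CKO to place a ratio closely.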
